A study of Mus musculus with 12 samples.

Results

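A set of 10 genes of prostaglandin and leukotriene synthesis was followed in mouse macrophage-like cells and in mouse liver exposed to esculetin, a plant coumarin. These were Pla2g4a, Ptgs1, Ptgs2, Ptges, Tbxas1, Hpgds, Alox5, Alox5ap, Lta4h and Ltc4s, that is 10 of the 55357 gene identifiers in each of both count tables. The genes were listed by name, because esculetin is a known lipoxygenase inhibitor and because a higher Ptgs2 level had been seen in the cells. The list was thus chosen by the measured counts of the cell libraries among other things, and the cell values are given here as a description without p-values. Where a call, an interval or a call lost in another setting is named for these genes in the cells, it belongs to that description. It is not offered as a test. The liver values are not named among the reasons for the choice and were tested, although earlier results of both tables were known when the list was made.

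RNA was sequenced from 12 libraries in 4 groups of 3. The cell groups were wild-type RAW264.7 cells, a mouse macrophage line, held for 24 hours with 25 µg/mL DiI-labelled oxidised LDL (oxLDL), either with 40 µg/mL esculetin or with DMSO alone, so that both groups carried the lipoprotein. The liver groups came from wild-type male C57BL/6J mice aged 8 to 9 weeks, which received by gavage for 7 days either esculetin (90 mg/kg/day) or the vehicle alone (2.5% Tween-80). All these mice ate a control diet with 10% of kcal from fat for 4 days and then a high-fat diet with 60% for 3 days, and RNA of 2 mice was pooled in each liver sample. RAW264.7 is a single immortalised line, and no source used here says whether its 3 libraries per group were separate cultures.

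Arachidonic acid, a polyunsaturated fatty acid stored in membrane phospholipids, is released by phospholipase A2 enzymes and is then drawn into competing routes. Cyclooxygenases turn it into prostaglandin H2, from which terminal synthases make prostaglandin E2, prostaglandin D2 or thromboxane A2, while 5-lipoxygenase with its activating protein turns it into leukotriene A4, from which leukotriene B4 or the cysteinyl leukotriene C4 is made. Macrophages are a major source of these lipid mediators of inflammation, and in the liver they are made largely by resident macrophages and other non-parenchymal cells. The transcripts measured here are those of the enzymes, and neither the lipids nor enzyme activity were measured.

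Since the study centred on the transcription factor C/EBPβ, the promoter sequences of Ptgs2 and Ptges, which were higher with esculetin in the cells, and of Lta4h, which was lower, are shown with any C/EBP motif marked. Each run is the 250 bases before the RefSeq start of the gene, 5′ to 3′ on the gene's strand in the build GRCm38.p6, and capitals mark the letters TTNCGNAA, which read the same on both strands. The windows are chr1:150099781-150100030 on the plus strand for Ptgs2, chr2:30903298-30903547 on the minus strand for Ptges and chr10:93453146-93453395 on the plus strand for Lta4h.
Ptgs2: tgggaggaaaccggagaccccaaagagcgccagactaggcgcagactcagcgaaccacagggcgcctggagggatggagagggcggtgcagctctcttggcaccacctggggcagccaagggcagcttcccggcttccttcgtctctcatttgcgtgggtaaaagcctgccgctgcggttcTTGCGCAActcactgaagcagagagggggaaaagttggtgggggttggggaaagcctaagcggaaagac
Ptges: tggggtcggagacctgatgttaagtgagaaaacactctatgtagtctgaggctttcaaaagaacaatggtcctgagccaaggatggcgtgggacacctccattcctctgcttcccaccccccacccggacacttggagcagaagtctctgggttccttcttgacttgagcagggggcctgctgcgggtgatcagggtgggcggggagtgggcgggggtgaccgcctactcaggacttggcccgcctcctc
Lta4h: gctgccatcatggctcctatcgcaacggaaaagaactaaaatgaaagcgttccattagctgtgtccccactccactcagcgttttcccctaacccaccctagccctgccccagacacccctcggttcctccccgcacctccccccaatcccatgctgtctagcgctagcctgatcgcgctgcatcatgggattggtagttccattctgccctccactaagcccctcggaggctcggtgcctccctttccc
The motif was found in the Ptgs2 window, as TTGCGCAA from 69 to 62 bases before the start (positions -69 to -62). RefSeq windows were used for 9 of the 10 genes, all but Alox5ap, and this was the only match before the start in them for TTNCGNAA, for the cyclic AMP half-site CGTCA, for the E-box CACGTG or for an NF-κB motif made of GGG, any 2 bases and TTTCC. Over all 32851 mouse promoter windows of this length, TTNCGNAA was present in 2.04%, CGTCA in 17.8%, CACGTG in 6.02% and the NF-κB motif in 1.41%. Just past the RefSeq start, Ptgs2 also held CGTCA at positions 14 to 18 and CACGTG at positions 17 to 22, which share 2 bases. All positions count from the RefSeq start, and where transcription starts in these samples was not measured. A match of letters is a description of the sequence and does not show that a factor was bound there.

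Each cell library held 13752842 to 20001959 counts and each liver library 14659876 to 20346460. In a principal component analysis of log2 CPM, the counts scaled to library size, the first component held 77.9% of the variance in the cells and separated the groups. In the liver it held 39.9% and set vehicle replicate 1, at -47.9, apart from the other 5 libraries, which lay between -3.44 and 19.4. Hepatocyte markers such as Alb were at or near 0 in the cells and summed to 106268 to 134009 CPM in the liver, and the macrophage markers Csf1r, Cd68, Lyz2 and Adgre1 were expressed in the cells. Exons of 8 of the 10 genes overlap those of an annotated gene on the opposite strand, by 144 to 476 bases, and since no strand setting was stated their reads cannot be told apart. The summed macrophage markers were higher with esculetin in the cells (1993 to 2219 CPM with vehicle, 4737 to 7271 CPM with esculetin), led by Lyz2. Of the 7 markers 6 were tested and 4 were called higher. Among all genes tested in the cells 57.7% were called, 28.7% higher. Cd68 and Fcgr1 were not called, no marker was called lower and Mrc1 was near 0. The difference in the sums ran alongside the cell results that follow, and its part in them was not tested.

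Across the 13277 genes tested in the cells with edgeR, 57.7% were called at an adjusted p-value under 0.05, with 28.7% higher and 29.0% lower with esculetin. All 10 eicosanoid genes passed the filter on low counts and 8 of them were called, 6 higher and 2 lower. Their median log2 fold change was 0.52, beside -0.01 for all genes tested. In 7 of the 10 the libraries of the groups did not overlap, beside 64.1% of all genes tested. With the thresholds of the study (unadjusted p-value under 0.05 and fold over 1.5) applied to a limma-voom fit, 5 of the 10 were called, beside 38.0% of all genes tested. Because these values helped to choose the list, nothing is read from the counts.

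**Figure D1:**
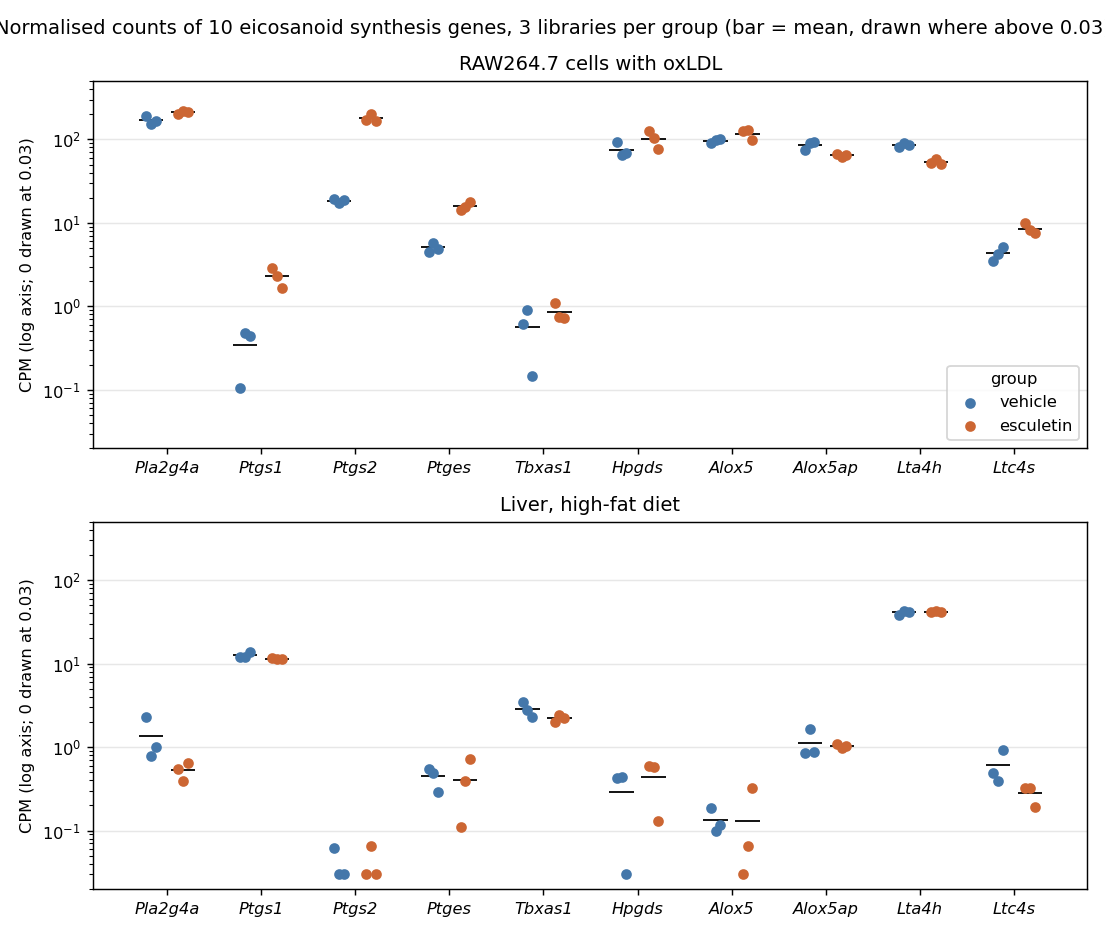
Normalised counts (CPM, log axis, a value of 0 drawn at 0.03) of each gene in every library of the RAW264.7 cells (upper panel) and of the liver (lower panel), with vehicle in blue, esculetin in orange and a bar at each group mean above 0.03. In the cells Ptgs2 lies between 17.1 and 19.4 CPM with vehicle and between 168 and 201 CPM with esculetin, whereas in the liver it has at most 1 count in a library.

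Ptgs2, which encodes the inducible cyclooxygenase COX-2, showed the widest separation of the 10 genes in the cells. It lies on chromosome 1 from 149975194 to 149983978 (GRCm39, plus strand, ENSMUSG00000032487). Its level was 19.4, 17.1 and 18.8 CPM in the vehicle libraries and 173, 201 and 168 CPM in the esculetin libraries. Every esculetin library lay far above every vehicle library, with group means of 18.5 ± 1.21 and 181 ± 18.2 CPM (SD, n = 3). The ratio of the means was 9.79, and the fitted log2 fold change was 3.29 (SE 0.11). A higher fold change was found for 106 of the 13277 tested genes. Since this rise was known when the list was made, the rank is a description.

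Ptgs1, which encodes the constitutive cyclooxygenase COX-1, was near the detection limit in the vehicle cells. It lies on chromosome 2 from 36120438 to 36142287 (plus strand). It had 2, 9 and 9 counts in the vehicle libraries and 39, 34 and 30 counts in the esculetin libraries. The groups did not overlap, at 0.342 ± 0.208 CPM with vehicle and 2.28 ± 0.591 CPM with esculetin (SD, n = 3), yet both were low. The log2 fold change was 2.70 (SE 0.47), and the ratio of the summed counts, scaled for depth, was 6.51. Its 95% counting interval of 4.00 to 11.1 leaves out the spread between libraries and is given as a description.

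COX-2 made up nearly all of the cyclooxygenase transcript in both cell groups. In TPM, which scales the counts by exon length as well as by library, Ptgs2 held 97.6 ± 1.53% of the sum of Ptgs1 and Ptgs2 with vehicle and 98.4 ± 0.435% with esculetin (SD, n = 3). The ranges of these shares overlapped between the groups, since both genes were higher with esculetin.

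Ptges, which encodes the inducible, microsomal prostaglandin E synthase that acts on the product of the cyclooxygenases, was also higher. It lies on chromosome 2 from 30779483 to 30820196 (minus strand). The vehicle libraries had 4.51, 5.81 and 4.91 CPM and the esculetin libraries 14.2, 15.5 and 17.6 CPM. All 3 esculetin libraries were above all 3 vehicle libraries, and the log2 fold change was 1.64 (SE 0.16). The TPM ratio of Ptgs2 to Ptges was 3.18 ± 0.596 with vehicle and 9.94 ± 1.54 with esculetin (SD, n = 3), so the transcript levels of these genes of successive steps moved apart.

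The other terminal prostanoid synthases on the list were not called in the cells. Hpgds, which encodes the haematopoietic prostaglandin D synthase (chromosome 6, 65094001 to 65121983, minus strand), had 92.4, 65.2 and 68.9 CPM with vehicle and 126, 103 and 76.7 CPM with esculetin. The groups overlapped through esculetin replicate 3 and vehicle replicate 1, and the log2 fold change was 0.43 (SE 0.17). It was called in 8 of the 16 alternative settings, among them leaving out vehicle replicate 1 (0.60) or esculetin replicate 3 (0.59), and it was 0.25 without esculetin replicate 1. Tbxas1, which encodes thromboxane A synthase (chromosome 6, 38852203 to 39061523, plus strand), had 12, 17 and 3 counts with vehicle and 15, 11 and 13 with esculetin. Its groups overlapped, and the interval of its log2 fold change of 0.61 ran from -0.61 to 1.83, so a difference was not detectable at this depth. Without vehicle replicate 3 it was 0.16, without esculetin replicate 1 it was 0.41, and without vehicle replicate 2 it was 1.16.

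Pla2g4a, which encodes the cytosolic phospholipase A2 that releases arachidonate, stood at a high level in both groups. It lies on chromosome 1 from 149705369 to 149837053 (minus strand), on the same chromosome as Ptgs2. The vehicle libraries had 192, 153 and 164 CPM and the esculetin libraries 200.3, 219.9 and 211 CPM. The esculetin libraries lay just above the highest vehicle library, and the log2 fold change was 0.31 (SE 0.10). The call was lost in 5 of 16 alternative settings, among them leaving out vehicle replicate 2, vehicle replicate 3 or esculetin replicate 2 (log2 fold changes of 0.25, 0.30 and 0.28).

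The leukotriene genes did not move together. Alox5, which encodes 5-lipoxygenase (chromosome 6, 116387032 to 116438139, minus strand), had 90.5, 98.9 and 101 CPM with vehicle and 126, 128 and 98.4 CPM with esculetin. Esculetin replicate 3 lay within the vehicle range. The log2 fold change was 0.28 (SE 0.11), and the call was lost in 10 of 16 alternative settings. Of these, 5 left out a library, namely vehicle replicate 1, 2 or 3 (0.23, 0.30 and 0.32) or esculetin replicate 1 or 2 (0.23 and 0.21).

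Alox5ap, which encodes the 5-lipoxygenase-activating protein (chromosome 5, 149196003 to 149227762, plus strand), was lower with esculetin. It had 75.4, 90.2 and 92.8 CPM with vehicle and 67.5, 62.0 and 65.9 CPM with esculetin. The groups did not overlap, and the log2 fold change was -0.40 (SE 0.10). The TPM ratio of Alox5ap to Alox5 was 0.946 ± 0.0521 with vehicle and 0.598 ± 0.102 with esculetin (SD, n = 3), and its ranges did not overlap.

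Transcripts of the enzymes that use leukotriene A4 lay on opposite sides of their vehicle level. Lta4h, which encodes the hydrolase that makes leukotriene B4 (chromosome 10, 93289210 to 93320749, plus strand), had 80.4, 90.7 and 85.3 CPM with vehicle and 52.8, 58.9 and 51.2 CPM with esculetin. Every esculetin library was below every vehicle library, with a log2 fold change of -0.66 (SE 0.09). Ltc4s, which encodes the synthase that makes leukotriene C4 (chromosome 11, 50127288 to 50129443, minus strand), had 3.52, 4.25 and 5.16 CPM with vehicle and 9.95, 8.18 and 7.53 CPM with esculetin. Here every esculetin library was above every vehicle library, with a log2 fold change of 0.98 (SE 0.20).

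By TPM, the order of these transcripts at the branch point differed between the groups, whereas by CPM it did not. Per exon length, Lta4h stood above Ltc4s in the vehicle cells, at 32.4 ± 1.60 and 17.3 ± 3.27 TPM. In the esculetin cells Ltc4s stood above Lta4h, at 33.1 ± 4.65 and 19.9 ± 1.75 TPM. In CPM Lta4h stood above Ltc4s in both groups, at 85.5 and 4.31 with vehicle and 54.3 and 8.55 with esculetin. TPM divides by all annotated exon bases of a gene, 10972 for Lta4h and 1037 for Ltc4s, so the order depends on that length. The TPM ratio of Ltc4s to Lta4h was 0.533 ± 0.0936 with vehicle and 1.67 ± 0.283 with esculetin (SD, n = 3), and its ranges did not overlap.

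**Figure D2:**
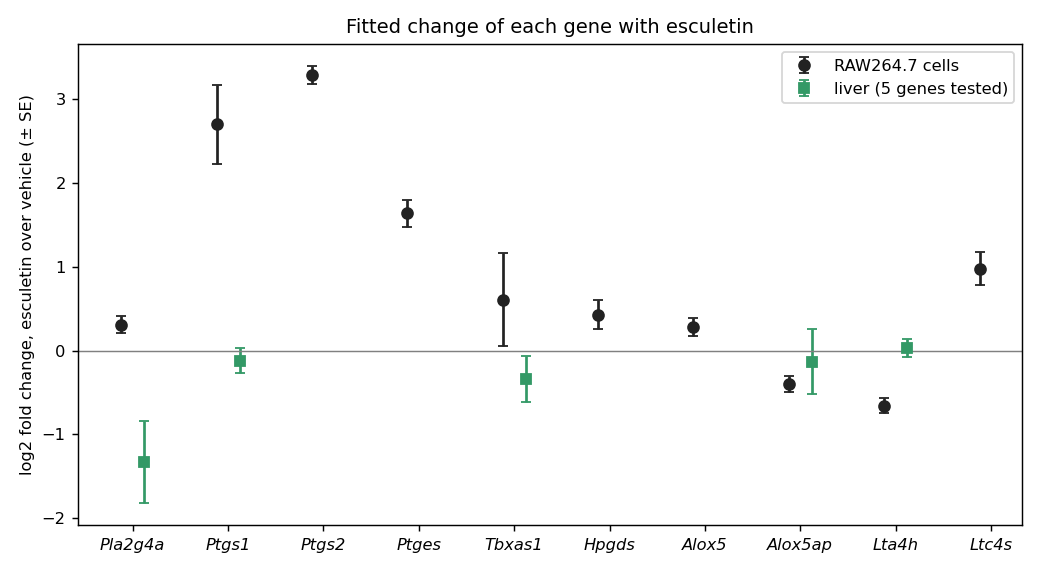
Fitted log2 fold change of each gene, esculetin over vehicle, with its SE as the bar, in RAW264.7 cells (black circles, 10 genes) and in liver (green squares, the 5 genes that passed the filter on low counts). Ptgs2 (3.29), Ptgs1 (2.70) and Ptges (1.64) stand highest in the cells and Lta4h (-0.66) lowest, while in the liver Ptgs1 and Lta4h lie near 0 and Pla2g4a at -1.33 has the longest bar.

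The ranking of the 10 genes by TPM in the vehicle cells was led by Alox5 at 97.6, Pla2g4a at 93.9 and Alox5ap at 92.5, whose ranges over the libraries overlapped. Hpgds at 39.7 and Lta4h at 32.4 came next and overlapped, followed by Ltc4s at 17.3 and Ptgs2 at 15.0, which overlapped too. Ptges at 4.79 stood apart from its neighbours, and Ptgs1 at 0.364 and Tbxas1 at 0.184 overlapped at the bottom.

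In the esculetin cells Ptgs2, at 142 ± 16.2 TPM, was first and stood apart from Alox5 at 115 and Pla2g4a at 112, which overlapped. Alox5ap at 67.5, Hpgds at 51.5, Ltc4s at 33.1, Lta4h at 19.9, Ptges at 14.4, Ptgs1 at 2.35 and Tbxas1 at 0.272 each stood apart from the next. In CPM, which takes no account of length, Pla2g4a had the highest mean with esculetin, at 210.3 beside 181 for Ptgs2 and 118 for Alox5. The order of Ptgs2 and Pla2g4a thus depends on the exon lengths used for TPM, 5123 and 7505 bases. The TPM ratio of Ptgs2 to Alox5 was 0.154 ± 0.0171 with vehicle and 1.24 ± 0.136 with esculetin (SD, n = 3). Together the 10 genes held 0.0394 ± 0.00105% of all TPM with vehicle and 0.0558 ± 0.00437% with esculetin.

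**Figure D3:**
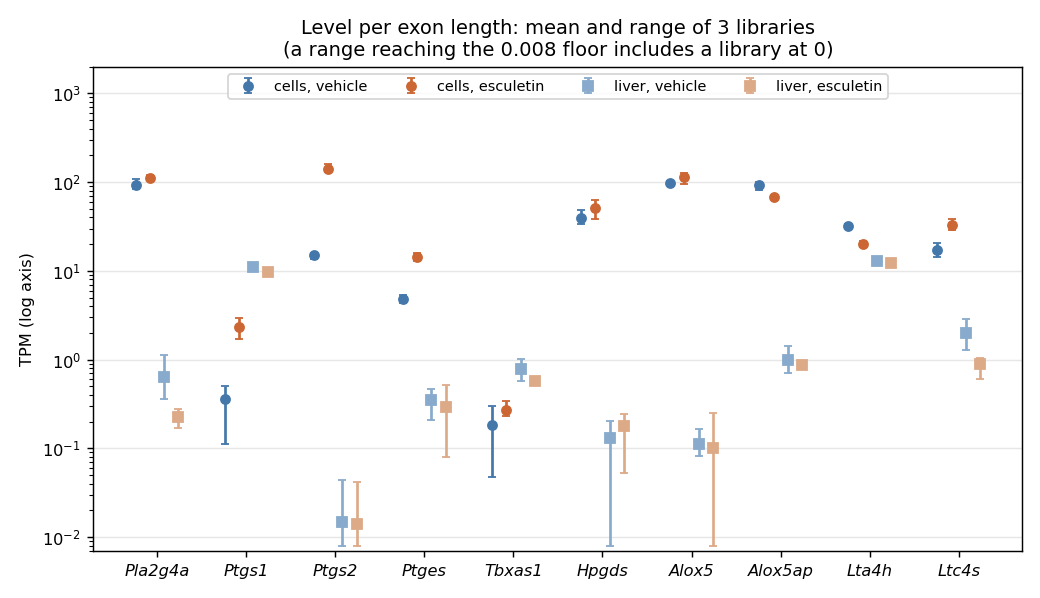
Level of each gene per exon length (TPM, log axis) as the mean and range of 3 libraries, for cells (circles) and liver (squares) with vehicle or esculetin, a library at 0 being drawn at 0.008. By TPM, Ptgs2 has rank 7 in the vehicle cells and rank 1 in the esculetin cells (by CPM the mean of Pla2g4a is higher there), whereas Lta4h and Ptgs1 lead in both liver groups.

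Genes whose profile over the 6 cell libraries lay nearest to that of Ptgs2 were sought by the root mean square difference of log2 CPM, each gene being centred on its vehicle mean. The nearest were Clec4e, a C-type lectin receptor of macrophages, at 0.19, the long non-coding RNA 6330403L08Rik at 0.21, the adaptor gene Sh3kbp1 at 0.21, the phospholipid-transporter gene Atp9a at 0.21 and Rgs16, a regulator of G-protein signalling, at 0.22. Their log2 fold changes ran from 3.06 to 3.35, and since the measure uses the same contrast this likeness is a description.

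Beyond the 10 genes, 79 genes of the arachidonate pathway in 9 lists were read in the same fit. In the cells 39 of them passed the filter on low counts, 11 rose, 13 fell and 15 were not called, that is 61.5% called beside 57.7% of all genes tested. Their median log2 fold change was -0.07, beside -0.01 for all genes.

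Among other phospholipases A2, 3 of 10 tested rose and 3 fell, where 28.7% of all genes tested rose and 29.0% fell. Pla2g5, a secreted enzyme, rose from 59.0 ± 2.45 to 127 ± 25.1 CPM (log2 fold change 1.11, SE 0.13, edgeR adjusted p = 2.96e-05). Pla2g6, the calcium-independent enzyme, fell from 43.0 ± 0.158 to 16.5 ± 2.26 CPM (log2 fold change -1.39, SE 0.12, edgeR adjusted p = 3.23e-06). The lysosomal Pla2g15 also fell, by 0.77 on the log2 scale. The remaining called members, Pla2g2e (0.81), Pla2g4c (2.58) and Pla2g4b (-1.60), were each under 7 CPM in both groups.

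Of the genes that handle arachidonate as a fatty acid, 3 of 9 tested rose and 3 fell, beside 28.7% and 29.0% of all genes tested. Acsl4, an acyl-CoA synthetase that favours arachidonate, rose from 118 ± 17.9 to 233 ± 22.8 CPM (log2 fold change 0.98, SE 0.12, edgeR adjusted p = 3.21e-05). Lpcat3, which inserts polyunsaturated acyl chains into lysophospholipids, rose by 1.01 on the log2 scale (SE 0.12, edgeR adjusted p = 4.08e-05). Acsl3 rose by 0.46, whereas Acsl1 (-0.40), the anandamide hydrolase Faah (-0.61) and Mboat7 (-0.27), which esterifies arachidonate into phosphatidylinositol, fell. The desaturases Fads1 (-0.07) and Fads2 (0.17) and the elongase Elovl5 (0.01) were not called.

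Neither of the other prostaglandin E synthases was called higher. Ptges2 fell from 21.8 ± 2.76 to 15.4 ± 1.16 CPM (log2 fold change -0.50, SE 0.13, edgeR adjusted p = 0.00647), and Ptges3 had a log2 fold change of -0.20 that was not called. The TPM ratio of Ptges to Ptges2 was 0.363 ± 0.0394 with vehicle and 1.59 ± 0.0523 with esculetin (SD, n = 3). Of the list of other prostanoid synthases, 4 of 7 were tested, Akr1b3 fell as well (-0.31) and Cbr1 (-0.28) was not called. None of the 6 other lipoxygenases and none of the 4 genes that trim cysteinyl leukotrienes passed the filter, with at most 8 counts of any of them in a library.

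Of the prostanoid receptors, 3 of 9 were tested. Ptgir, the prostacyclin receptor, fell from 33.4 ± 1.83 to 21.7 ± 2.45 CPM (log2 fold change -0.62, SE 0.12, edgeR adjusted p = 0.000816). The prostaglandin E2 receptors Ptger4 (0.20) and Ptger1 (-0.28) were not called. Of 6 leukotriene and related receptors only Cysltr1, the cysteinyl leukotriene receptor, was tested, with a log2 fold change of -0.13 that was not called.

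Among genes of breakdown and transport, 6 of 11 were tested, of which 4 rose and none fell. That is 66.7% called, beside 57.7% called and 28.7% called higher among all genes tested. Hpgd, which was not tested, had 0 counts in every cell library, and Slco2a1 had at most 5. Abcc1, which exports leukotriene C4, rose from 358 ± 24.6 to 517 ± 51.5 CPM (log2 fold change 0.53, SE 0.10, edgeR adjusted p = 0.000655). Abcc4, which exports prostaglandins, rose by 0.37 and the prostaglandin reductases Ptgr3 and Ptgr2 by 0.51 and 0.28, while Ptgr1 (0.02) and Cyp4f13 (0.05) were not called.

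Of the 6 regulators tested 1 rose and 4 fell, that is 83.3% of a list of 6 genes, beside 57.7% of all genes tested. Zfp36, which encodes tristetraprolin, an RNA-binding protein that speeds decay of AU-rich transcripts such as that of COX-2, rose from 69.3 ± 1.94 to 146 ± 15.5 CPM (log2 fold change 1.07, SE 0.09, edgeR adjusted p = 3.72e-06). Its relative Zfp36l1 fell from 78.5 ± 3.40 to 26.9 ± 9.05 CPM (log2 fold change -1.55, SE 0.18, edgeR adjusted p = 2.97e-05). The stabilising protein gene Elavl1 (-0.46), the kinase gene Mapkapk2 (-0.44) and Cotl1 (-0.84), whose product binds 5-lipoxygenase, fell too. Anxa1, which encodes annexin A1, had a log2 fold change of 0.14 and was not called.

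**Figure D4:**
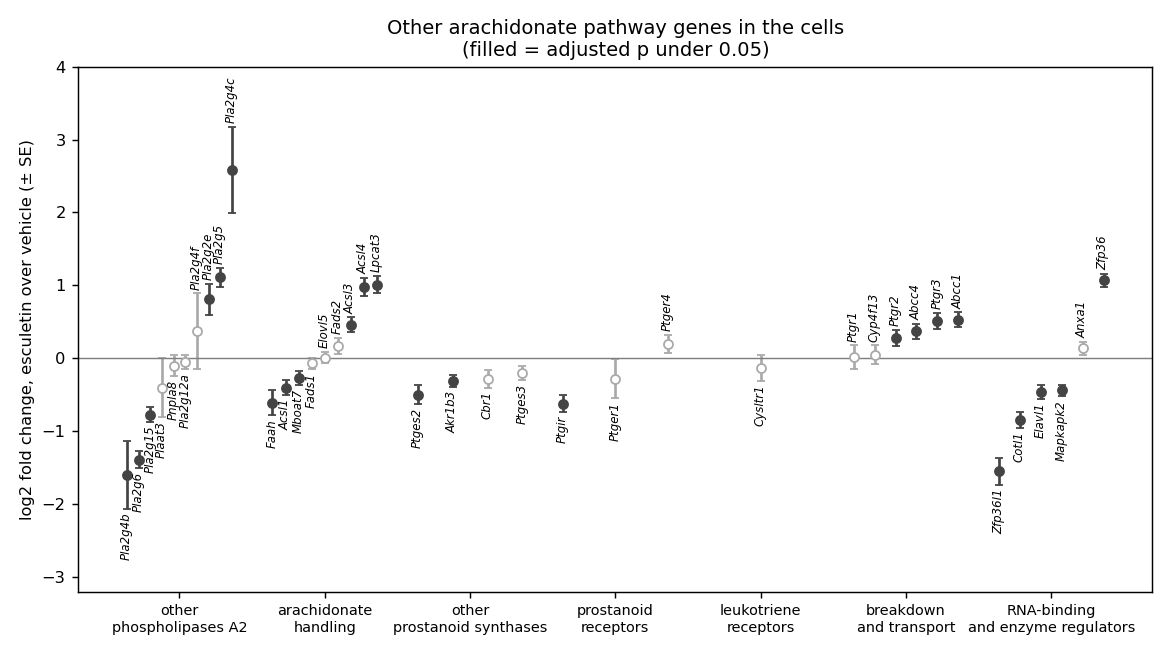
Log2 fold change, esculetin over vehicle, of the 39 tested pathway genes outside the 10, by list, in RAW264.7 cells, with the SE as the bar and filled points where the edgeR adjusted p-value was under 0.05. In the breakdown and transport list the called genes, 4 of 6 tested, lie above 0. In the list of other prostanoid synthases the called genes, 2 of 4 tested, lie below 0, and the remaining larger lists hold both. Among all genes tested 28.7% were called higher and 29.0% lower.

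In the liver the same 10 genes formed another profile. Per exon length Lta4h led at 12.8 ± 0.633 TPM with vehicle, followed by Ptgs1 at 11.0 ± 0.396 TPM, and each of the other 8 genes stood at 1.97 TPM or less. Ptgs2 held 0.129 ± 0.224% of the cyclooxygenase TPM in the vehicle livers and 0.146 ± 0.254% in the esculetin livers (SD, n = 3), beside at least 96.4% in every cell library. Each liver share rests on 1 count in 1 library. The 10 genes together held 0.00288 ± 0.000101% of all TPM with vehicle and 0.00251 ± 2.86e-05% with esculetin. In whole tissue, fewer cells of a type and less RNA per cell cannot be told apart.

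The filter on low counts passed 5 of the 10 genes in the liver, and none was called by edgeR, which called 0.0859% of the 12813 genes tested (11 genes). Without adjustment, 1 of the 5, Pla2g4a, had a p-value under 0.05, beside 8.37% of all genes tested. DESeq2 and limma-voom with adjusted p-values called none of them either, and the thresholds of the study on the limma-voom fit called Pla2g4a alone, beside 3.89% of all genes tested.

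Pla2g4a was low in the liver, with 37, 16 and 17 counts in the vehicle libraries and 10, 6 and 10 in the esculetin libraries. The esculetin libraries, at 0.390 to 0.647 CPM, lay below the vehicle libraries, at 0.789 to 2.27 CPM, and vehicle replicate 1 was the highest. The log2 fold change was -1.33 (SE 0.49, 95% interval -2.40 to -0.25, edgeR unadjusted p = 0.0196, adjusted p = 0.501). Without vehicle replicate 1, the library that stood apart, it was -0.74 (SE 0.47, edgeR adjusted p = 0.698). Some macrophage markers were lower with esculetin as well. Cd68 (log2 fold change -0.50, edgeR unadjusted p = 0.0119), Csf1r (-0.28, unadjusted p = 0.0284), Adgre1 (-0.31, unadjusted p = 0.0542) and the Kupffer cell marker Marco (-0.77, unadjusted p = 0.00651) were lower in every esculetin library than in any vehicle library, and none of these was called after adjustment. Groups failed to overlap in 14.5% of all genes tested in the liver. The other tested markers of these lists had overlapping groups. They were Lyz2 (0.11), Fcgr1 (-0.24), Mrc1 (-0.25), Clec4f (-0.22), Vsig4 (0.02), Timd4 (-0.10) and Cd5l (-0.08). The sums of the 7 macrophage markers (165 to 198 and 159 to 177 CPM), of which Lyz2 was the largest part, and of the 5 Kupffer cell markers (281 to 328 and 258 to 295 CPM) overlapped between vehicle and esculetin. The sum of the 7 neutrophil markers, none of which passed the filter, was 1.11 to 1.66 CPM with vehicle and 0.708 to 0.714 CPM with esculetin. The means of these markers differed most for S100a9 (0.794 and 0.264 CPM). Those of Retnlg (0.230 and 0.0829 CPM) and Ngp (0.0583 and 0.0363 CPM) were also lower, with overlapping groups. S100a8 (0.214 and 0.264 CPM) and Camp (0.0205 and 0.0648 CPM) were not lower, and Ly6g and Mpo were at 0 in every library. The part of these cells in the result was not tested.

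Ptgs1 was the main cyclooxygenase transcript of the liver, with 12.0, 12.0 and 13.6 CPM with vehicle and 11.8, 11.2 and 11.5 CPM with esculetin. Its groups just failed to overlap, as did those of 14.5% of all genes tested in the liver, and its log2 fold change of -0.12 (SE 0.15) had an interval of -0.44 to 0.20 (edgeR adjusted p = 0.852). Lta4h had 38.6, 42.8 and 42.0 CPM with vehicle and 41.8, 42.1 and 42.0 CPM with esculetin. The vehicle range covered the esculetin libraries, and the interval of its log2 fold change of 0.03 ran from -0.22 to 0.28 (edgeR adjusted p = 0.962). Without vehicle replicate 1 the fold changes of Ptgs1 and Lta4h were -0.15 and -0.01.

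Tbxas1 had 56, 56 and 39 counts with vehicle and 37, 37 and 35 with esculetin. After scaling the groups overlapped, and the log2 fold change was -0.34 (SE 0.27, edgeR adjusted p = 0.752) with all libraries and -0.18 without vehicle replicate 1. Alox5ap had 14, 33 and 15 counts with vehicle and 20, 15 and 16 with esculetin. Vehicle replicate 2 was the highest, and the fitted change, -0.13 on the log2 scale (SE 0.39, edgeR adjusted p = 0.947), became 0.25 without it and -0.28 without vehicle replicate 1.

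The remaining 5 genes did not pass the filter on low counts in the liver. Ptgs2 had 1, 0 and 0 counts with vehicle and 0, 1 and 0 with esculetin. The ratio of its summed counts, 1.09, had a counting interval of 0.0139 to 85.7, which holds the ratio of 9.79 seen in the cells, so no response of that size could be seen or set aside at this depth. Alox5 had 7 and 6 summed counts, Hpgds 16 and 22, and Ptges 24 and 19 in the vehicle and esculetin groups. For each of these 3 the 95% counting interval of the ratio held 1, being widest for Alox5, at 0.260 to 3.25.

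Ltc4s had 8, 8 and 16 counts with vehicle and 6, 5 and 3 with esculetin. Its esculetin libraries, at 0.194 to 0.327 CPM, lay below its vehicle libraries, at 0.395 to 0.932 CPM. The gene was not tested, and groups failed to overlap in 14.5% of the genes that were tested in the liver. The ratio of the summed counts of Ltc4s was 0.478 with a counting interval of 0.235 to 0.921, which leaves out the spread between samples.

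Of the 79 further pathway genes, 50 passed the filter in the liver and none was called by edgeR, while DESeq2 called 1 of them, Elovl5. Without adjustment, 8 of the 50 had a p-value under 0.05 (16.0%, beside 8.37% of all genes), 2 higher (Ptges2 and Zfp36) and 6 lower (Elovl5, Acsl3, Mgll, Fads1, Fads2 and Abcc1). Elovl5, the elongase of polyunsaturated fatty acids, had 970.3 ± 112 CPM with vehicle and 552 ± 139 CPM with esculetin (SD, n = 3). Its groups did not overlap, and its log2 fold change was -0.81 (SE 0.17, edgeR unadjusted p = 0.000531, adjusted p = 0.165). Ptges2, which fell in the cells, had 25.8 ± 4.68 CPM with vehicle and 36.9 ± 2.04 CPM with esculetin in the liver (log2 fold change 0.51, SE 0.15, edgeR adjusted p = 0.319). Abcc1, which rose in the cells, was low in the liver, with 24, 57 and 47 counts with vehicle and 26, 19 and 15 with esculetin. Its esculetin libraries, at 0.971 to 1.42 CPM, lay just below its vehicle libraries, at 1.47 to 2.81 CPM. It was not called (log2 fold change -0.95, SE 0.35, edgeR adjusted p = 0.491).

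In a 4-group edgeR fit of all 12 libraries, the effect of esculetin in the cells was set against that in the liver. No such test is given for the 10 genes, because their cell values entered the choice of the list, and their changes stand side by side in the plot of fitted log2 fold changes. Of the 30 further pathway genes that passed the filter in both tables, 15 differed at an adjusted p-value under 0.05, beside 36.5% of the 10449 genes that did so. Ptges2 differed by -1.06 on the log2 scale (cells minus liver, SE 0.20, edgeR adjusted p = 0.00105) and Abcc1 by 1.44 (SE 0.28, edgeR adjusted p = 0.00128).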

How the data were processed

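The authors deposited unnormalised read counts for each gene, in 1 table for the cells and 1 for the liver. Per the study's methods and the submitters' processing notes, 150-bp paired-end reads from a NEBNext Ultra library were aligned with HISAT2 2.2.1 to GRCm39 and counted with featureCounts; the notes also list mm10, and the strand setting, the treatment of multiply mapped reads and the annotation release are not given in the sources used here. No column of another sample was present (0 unused). Symbols and exon lengths came from GENCODE vM39 (54749 of 55357 identifiers matched), and the 250-base promoter windows from RefSeq (GRCm38.p6).

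The tables were fitted separately with edgeR 4.0.16 in R 4.3.3 (filterByExpr, TMM, quasi-likelihood test, treatment only, two-sided), with Benjamini-Hochberg adjustment over all tested genes and a threshold of 0.05. The SE was taken from the fold change and its F statistic. A 4-group fit of all 12 libraries gave differences between cells and liver. CPM is scaled with TMM factors, and errors are SDs over 3 libraries. TPM is computed over the merged length of all annotated exons of a gene, so an order of genes by TPM depends on that length. Replicates differed by more than counting noise (chi-square per degree of freedom 2.90 to 76.5), and p-values measure the spread between these samples only. Intervals of count ratios are exact at 95% and cover counting error only. Alternatives were other scalings, other filters, DESeq2 1.42.0, limma-voom 3.58.1, the study's thresholds (unadjusted p-value under 0.05 and fold over 1.5; the study names limma, and how counts were transformed is not given in the sources used here) on the limma-voom fit, a replicate block and leaving out each library. The scripts were tested on simulated counts. Motifs were searched on both strands.

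The 10 genes and all lists were chosen with earlier results of these data known. All 10 are named, as are of each pathway list the genes called and up to 4 with the smallest p-values, and the 5 genes nearest to Ptgs2. Of 80 further pathway genes listed, 79 had 1 identifier.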

Additional observations from a re-analysis of the deposited data

Results flagged for a closer look

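For 15 of the 30 further pathway genes that passed the filter in both tables, the effect of esculetin in the cells differed from that in the liver at an adjusted p-value under 0.05 in the 4-group edgeR fit, beside 36.5% of the 10449 genes that passed both filters. Dose, route, time and diet also differ between the tables, and these cannot be told apart from the tissue. The differences are log2 fold changes in the cells minus those in the liver. Among phospholipases they were -1.32 for Pla2g6 and -0.67 for Pla2g15. Among genes that handle arachidonate they were 1.14 for Acsl3, 0.90 for Acsl4, 0.99 for Lpcat3, -0.50 for Faah and 0.79 for Elovl5, of which Elovl5 was the one with a fold change near 0 in the cells (0.00) and a lower level in the liver (-0.79). The synthase Ptges2 differed by -1.06 (-0.51 and 0.54), and in the breakdown and transport list Ptgr3 differed by 0.51 and Abcc1 by 1.44 (0.52 and -0.93). Among the regulators the difference was 0.76 for Zfp36, -1.27 for Zfp36l1, -0.59 for Elavl1, -0.72 for Mapkapk2 and -0.89 for Cotl1. In alternatives chosen after seeing the data, with other scalings or 1 library left out, 12 to 16 of the 30 differed. The calls of 3 genes were lost in some of them. That of Pla2g15 was lost without liver vehicle replicate 1 (-0.50) or 2 (-0.66), liver esculetin replicate 1 (-0.47) or 2 (-0.59), cell vehicle replicate 2 (-0.65) or 3 (-0.66), or cell esculetin replicate 3 (-0.62). That of Faah was lost without liver vehicle replicate 1 (-0.40) or 2 (-0.48), liver esculetin replicate 1 (-0.45), 2 (-0.41) or 3 (-0.49), cell vehicle replicate 1 (-0.48) or 3 (-0.46), or cell esculetin replicate 2 (-0.48). That of Ptgr3 was lost with library sizes alone (0.56) and without liver vehicle replicate 1 (0.43), liver esculetin replicate 2 (0.58) or 3 (0.53), cell vehicle replicate 1 (0.51), 2 (0.47) or 3 (0.54), or cell esculetin replicate 1 (0.51) or 3 (0.43).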

How the results depend on the processing

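The cell values of the 10 genes are a description over the libraries that entered their choice. Over 16 alternatives the log2 fold changes were 3.20 to 3.34 for Ptgs2, 2.28 to 3.02 for Ptgs1, 1.55 to 1.75 for Ptges, 0.85 to 1.14 for Ltc4s and -0.72 to -0.61 for Lta4h. The study's thresholds on a limma-voom fit gave 5041 genes in place of 7667, 5 of the 10 genes in place of 8 and 13 pathway genes in place of 24, a setting that adds a minimum fold. In the liver the number of genes called, 11, was 0 with library sizes alone, 339 with no filter, 98 with DESeq2, 499 by the study's thresholds, 33 in the 4-group fit and 0 to 31 with 1 library left out, and the cause was not tested. It was 0 without vehicle replicate 2, esculetin replicate 1 or esculetin replicate 3, and 31 without vehicle replicate 3. Among the 10 genes only the study's thresholds gave a liver call in place of 0, 1 for Pla2g4a. Pathway genes called in the liver were 3 with no filter, 1 with DESeq2, 3 by the study's thresholds and 1 in the 4-group fit, Elovl5 each time or among them. Signs turned for uncalled liver values, with Alox5ap at -0.29 to 0.25 (above 0 without vehicle replicate 2) and Lta4h at -0.01 to 0.06 with 1 library left out (below 0 without vehicle replicate 1), and Lta4h at -0.03 with library sizes alone. With the replicate block, 9 of the 10 genes were called in the cells (Hpgds added), 123 genes and 1 pathway gene in the liver. Same-numbered libraries deviated with correlations of 0.165, -0.0298 and 0.0796 in the cells and 0.14, -0.00529 and 0.103 in the liver, and 3 and 4 of 6 libraries correlated best with their own number, so the numbers are not taken as pairs. Depth limits Ptgs1 and Tbxas1 in the cells, and 7 of the 10 genes in the liver, all but Lta4h, Ptgs1 and Tbxas1.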
